A study of Mus musculus with 7 samples.

Results

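Genes of fatty acid oxidation and of the peroxisome proliferator-activated receptors (PPARs) were examined in Paneth cells (PCs), secretory cells filled with antimicrobial granules that sit at the bottom of small intestinal crypts. A fixed list of 33 mouse genes was taken, and each symbol was matched to 1 Ensembl identifier among the 55414 in the count table. The rule that lists the genes uses their function, and the list was made with earlier results of these data known. PCs had been purified with a cell sorter from C57BL/6J mice 15 h after injection of tumour necrosis factor (TNF), a pro-inflammatory cytokine, or of phosphate-buffered saline (PBS) as control. The comparison held 3 PBS and 4 TNF libraries, each from a different mouse according to the series description. No transgene or deletion is named for either group, and the sources used here do not give the dose, age, sex or intestinal region.

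Mitochondria shorten fatty acids by beta-oxidation. A fatty acid is first joined to coenzyme A, carried across the inner membrane as a carnitine ester, and then passed repeatedly through a dehydrogenase, a hydratase, a second dehydrogenase and a thiolase. Auxiliary isomerases and reductases handle unsaturated chains, and electrons leave through the electron transfer flavoprotein. Peroxisomes carry out a related pathway on very long chains. PPARs are nuclear receptors that bind fatty acids, pair with a retinoid X receptor and activate many genes of these pathways. In the intestine, fatty acid oxidation is best known from absorptive enterocytes and from crypt stem cells.

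The libraries held 15511455 to 19193721 counts. Levels are CPM, meaning counts scaled to a library of 1000000 after TMM normalization of the library sizes. PC identity was checked with 7 marker genes, among them the lysozyme gene Lyz1 and the defensin gene Defa24, whose summed level was 168500 to 276580 CPM after PBS and 179140 to 330990 CPM after TNF. Of these markers, Defa21 (log2 fold change 1.84), Defa22 (1.76) and Mmp7 (0.88) rose, and the other 4 were not called. Markers of other cell types were read beside them. The 4 adipocyte markers were at 0 in every library, the 4 endothelial markers summed to at most 7.02 CPM (Kdr at 0, and Tek called lower at -1.47), and the 9 leukocyte markers to 25.2 to 33.3 CPM after PBS and 16.4 to 26.7 CPM after TNF (Cd3e at 0, and Ptprc called lower at -0.95). The 7 goblet cell markers summed to 11176 to 20555 CPM after PBS and 9167 to 10486 CPM after TNF, sums made up mostly of Muc2 and Spink4, which were not called. Those that changed were Fcgbp (log2 fold change -5.62), Zg16 (-4.59), Clca1 (-2.86) and Tff3 (-2.14), so that 4 of 7 fell, each by more than 2-fold. The 5 stem cell markers summed to 3328 to 4626 CPM after PBS and 1930 to 2672 CPM after TNF, and 4 of them fell, namely Ascl2 (-4.65), Lgr5 (-2.32), Olfm4 (-1.09) and Smoc2 (-0.75). The 13 enterocyte markers summed to 405 to 534 CPM after PBS and to 103 to 123 CPM after TNF, and 6 of the 7 that could be tested were called lower and 1 (Slc5a1) higher. After PBS most of this sum came from Anpep (308.5 to 448 CPM). Without Anpep, Mttp and Slc5a1, a choice made after the values were seen, the other 10 markers summed to 79.3 CPM in PBS replicate 2, against 8.90 and 17.7 CPM in PBS replicates 1 and 3 and 0.884 to 1.62 CPM after TNF. The part of goblet, stem and enterocyte RNA in the falls of members and of related genes described here was not tested. In such bulk samples fewer cells of a type and less RNA per cell cannot be told apart.

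Of the 33 genes, 31 passed the filter on low counts and were tested with edgeR across all 14329 tested genes. A gene was called when its Benjamini-Hochberg adjusted p was under 0.05. TNF was followed by a rise of 7 members and a fall of 10, while 14 did not pass the threshold. Thus 17 of 31 members (54.8%) were called, against 59.6% of all tested genes. Rises made up 29.5% and falls 30.1% of all tested genes, so the shares of the members (22.6% and 32.3%) lay near this background. Changes of 2-fold or more were seen in 4 members that rose (Acadl, Pdk4, Slc25a20 and Angptl4) and 6 that fell (Hadh, Acaa2, Decr1, Eci1, Ehhadh and Ppara), where 14.4% and 17.2% of all tested genes rose or fell that far. The median log2 fold change of the 31 genes was -0.09, beside 0.0017 over all tested genes. For 18 of 31 members the TNF and PBS values did not overlap, against 60.7% of all tested genes. The members thus moved in both directions, and they are described by their place in the pathway.

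**Figure D1:**
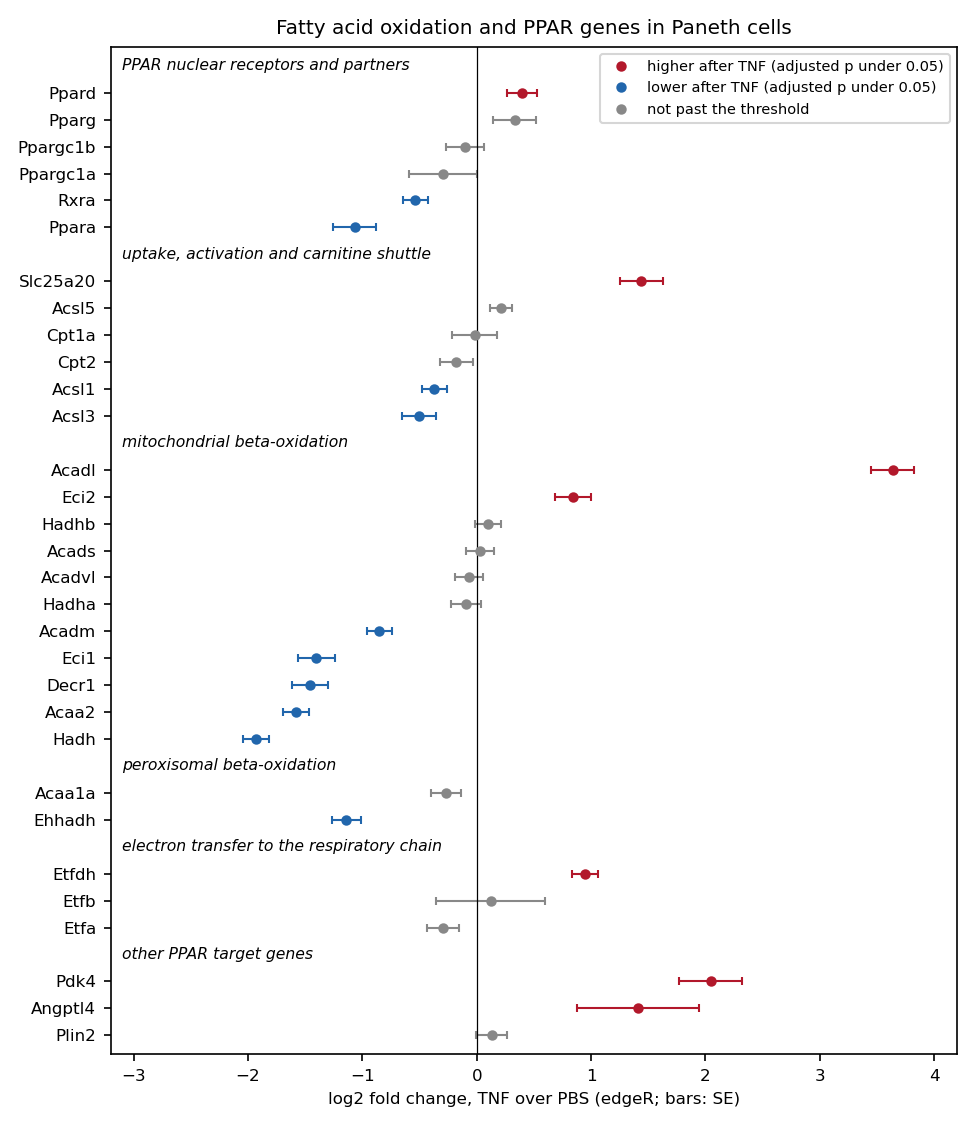
Log2 fold change of TNF over PBS for the 31 tested genes, by role in the pathway, with points for the edgeR estimate and bars for its SE (3 PBS and 4 TNF libraries). Acadl lies far to the right at 3.64, and Hadh is the lowest at -1.93.

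Among the nuclear receptors, Ppara fell, Ppard rose slightly, and Pparg did not pass the threshold. Ppara encodes PPARα, the main fatty acid sensor of oxidative tissues. It had 11.0, 13.5 and 14.8 CPM in the PBS libraries and 7.44, 6.37, 5.41 and 5.82 CPM in the TNF libraries. Every TNF library lay below every PBS library, and the log2 fold change was -1.07 ± 0.19 (SE, adjusted p = 0.000252). In the GENCODE annotation of GRCm39, 27.4% of the exon length of Ppara (chromosome 15, 85618656 to 85687067) is overlapped by exons of Cdpf1 on the opposite strand. Cdpf1 fell as well (log2 fold change -0.96 ± 0.24, adjusted p = 0.00365). Whether counting used strand is not stated, so reads from this stretch cannot be assigned to either gene with certainty.

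Ppard, which encodes the widely expressed PPARδ, was the most abundant of the 3 receptors per exon length, with 12.9 CPM per kb after PBS against 1.99 for Ppara and 1.27 for Pparg. Its level was 116, 95.9 and 79.5 CPM after PBS and 112, 143, 128 and 127 CPM after TNF. The groups overlapped through PBS replicate 1, and the log2 fold change was 0.40 ± 0.13 (adjusted p = 0.0175). Ppard was not called without PBS replicate 2 (0.39, adjusted p = 0.0552), PBS replicate 3 (0.27, 0.086) or TNF replicate 2 (0.34, 0.055), and the adjusted p ran from 0.00334 to 0.086 over all 13 alternatives. Pparg, the receptor known from adipocytes and the colonic epithelium, had 8.04, 10.8 and 7.58 CPM after PBS and 10.1, 10.7, 12.9 and 10.8 CPM after TNF. The groups overlapped, and Pparg was not called (0.33 ± 0.19, adjusted p = 0.142).

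Of the partners, Rxra fell and the PGC-1 coactivators were not called. Rxra, which encodes the retinoid X receptor that pairs with PPARs, had 62.4, 77.7 and 63.0 CPM after PBS and 49.8, 47.2, 46.1 and 43.7 CPM after TNF. The groups did not overlap, and the log2 fold change was -0.54 ± 0.11 (adjusted p = 0.000772). Ppargc1a, a coactivator that drives mitochondrial programmes, had 5.25, 9.42 and 7.11 CPM after PBS and 9.01, 5.13, 3.80 and 5.76 CPM after TNF. These values were widely scattered within both groups (log2 fold change -0.30 ± 0.30, adjusted p = 0.408). Its relative Ppargc1b had 11.6, 11.9 and 10.4 CPM after PBS and 11.0, 8.84, 10.6 and 11.6 CPM after TNF (-0.11 ± 0.17, adjusted p = 0.61).

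**Figure D2:**
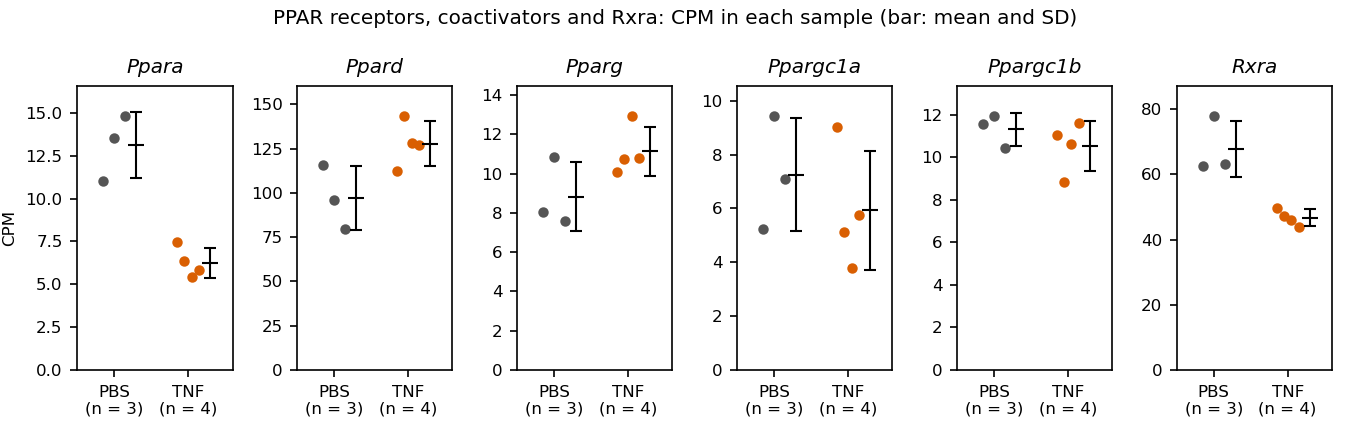
CPM of the PPAR genes, the coactivators and Rxra in each library, with dots for libraries and bars for mean and SD (PBS n = 3, TNF n = 4); each panel has its own axis from 0. The TNF dots lie below all PBS dots for Ppara and Rxra and overlap them for the coactivators.

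The first steps, from uptake to the carnitine shuttle, held one clear rise. Slc25a20 encodes the carnitine-acylcarnitine translocase, which carries acylcarnitines across the inner mitochondrial membrane. Its level was 16.8, 34.2 and 24.2 CPM after PBS and 68.8, 64.5, 72.5 and 66.8 CPM after TNF. All TNF libraries lay above all PBS libraries and close to each other, with a log2 fold change of 1.44 ± 0.19 (2.71-fold, adjusted p = 2.56e-05). The change was 1.73 without PBS replicate 2, the highest of the controls, and 1.23 without PBS replicate 1, the lowest, and Slc25a20 was called in both.

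Neither carnitine palmitoyltransferase was called. Cpt1a, whose product makes acylcarnitines on the outer membrane and is regarded as the rate-limiting step, had 100.1, 178 and 96.7 CPM after PBS and 115, 122, 143 and 113 CPM after TNF. PBS replicate 2 stood above every other library, and the log2 fold change was -0.02 ± 0.19 (adjusted p = 0.942). Without PBS replicate 2, the library with the highest sum of the 10 enterocyte markers, Cpt1a was called higher at 0.33 (adjusted p = 0.0488). The part of these markers in the level of Cpt1a was not tested. Cpt2, the inner membrane enzyme, averaged 29.3 ± 5.84 CPM in controls and 25.9 ± 2.19 CPM in TNF libraries (mean ± SD here and below, n = 3 and n = 4). The log2 fold change was -0.18 ± 0.15 (adjusted p = 0.309), and among the alternatives Cpt2 was called lower only without PBS replicate 3 (-0.34, 0.0432).

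The long-chain acyl-CoA synthetases, which activate fatty acids, differed among themselves. Acsl1 fell from 106 ± 10.7 CPM after PBS to 82.2 ± 7.93 CPM after TNF (log2 fold change of -0.37 ± 0.11, adjusted p = 0.0101), and Acsl3 from 23.7 ± 2.98 CPM to 16.7 ± 2.42 CPM (-0.51 ± 0.15, adjusted p = 0.0098). Both ranges were free of overlap, but the Acsl1 call was lost without PBS replicate 1 (-0.28, adjusted p = 0.0638) and the Acsl3 call without PBS replicate 3 (-0.40, 0.0533). In the annotation, 15.4% of the exon length of Acsl3 is shared with Utp14b on the same strand. Acsl5, an isoform that is abundant in the small intestine, had 94.4 ± 1.97 CPM after PBS and 109.5 ± 6.70 CPM after TNF. Its groups did not overlap either, yet it was not called (0.21 ± 0.09, adjusted p = 0.0656). Exons of Zdhhc6 on the opposite strand overlap 37.3% of the exon length of Acsl5, so its level is uncertain where counting did not use strand. The fatty acid transporter gene Cd36 was close to absent, with 8 counts in all PBS libraries together and 3 in all TNF libraries, and could not be tested.

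The largest change of the whole list was that of Acadl, which encodes long-chain acyl-CoA dehydrogenase, one of the enzymes of the first step of mitochondrial beta-oxidation. Acadl (ENSMUSG00000026003, GRCm39 chromosome 1, 66868267 to 66902633) had 67.1, 84.3 and 51.6 CPM in the PBS libraries and 693, 918, 809.6 and 949.7 CPM in the TNF libraries. Every TNF library exceeded every PBS library several times over. The log2 fold change was 3.64 ± 0.19 (12.4-fold, adjusted p = 3.79e-09), and it ran from 3.47 to 3.83 over the 13 alternatives. No exon of another annotated gene overlaps Acadl, and 0.0% of its windows of 75 bases occur in transcripts of other genes.

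None of the other 3 acyl-CoA dehydrogenases was called higher. Acadm, for medium chains, had 49.4, 43.8 and 41.7 CPM after PBS and 24.8, 25.0, 26.2 and 23.5 CPM after TNF. It fell in all 4 TNF libraries below the PBS range (log2 fold change -0.85 ± 0.11, adjusted p = 1.52e-05). Acadvl, for very long chains, had 39.5 ± 5.27 CPM after PBS and 37.8 ± 3.92 CPM after TNF (-0.07 ± 0.12, adjusted p = 0.667). Exons of Dvl2 on the opposite strand overlap 38.2% of its exon length. Dvl2 fell (log2 fold change -0.67 ± 0.15, adjusted p = 0.00135), and whether its reads entered the count of Acadvl was not tested. Acads, for short chains, had 23.6 ± 1.16 and 24.0 ± 1.94 CPM (0.03 ± 0.12, adjusted p = 0.862). On the scale of CPM per kb of annotated exon, Acadl held 40.8% ± 4.92 (SD, n = 3) of the summed level of these 4 genes after PBS and 90.9% ± 1.40 (SD, n = 4) after TNF. The annotated length joins the exons of all transcripts of a gene, so shares and ranks between genes depend on it. Among all 33 genes, Acadl ranked 3 of 33 by mean CPM per kb after PBS and 1 of 33 after TNF, with 17.3 and 216 CPM per kb. Acsl5 came next after TNF with 18.4 CPM per kb, a level that carries the doubt from its overlap with Zdhhc6.

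**Figure D3:**
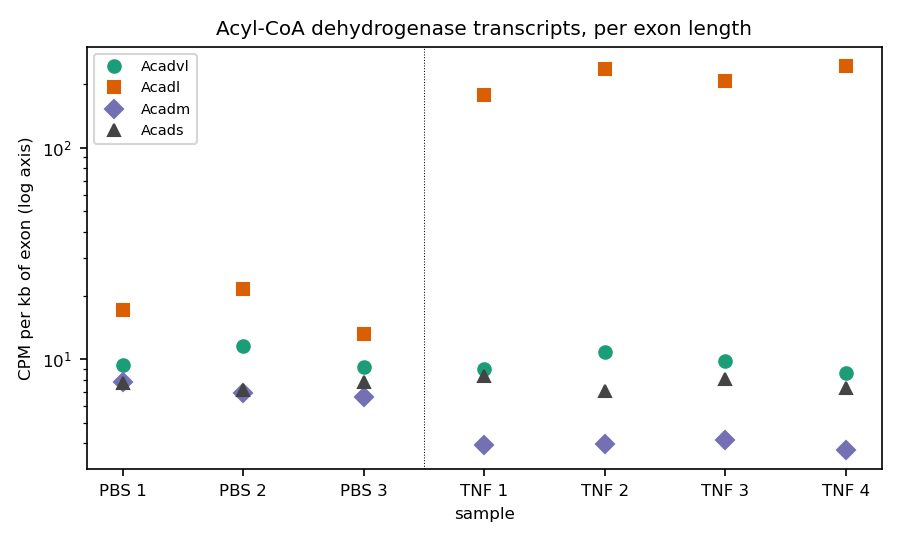
Level of the 4 acyl-CoA dehydrogenase genes in each library, as CPM per kb of annotated exon on a log axis; the dotted line separates the 3 PBS from the 4 TNF libraries. Acadl lies between 13.2 and 21.6 after PBS and between 177 and 243 after TNF, while Acadm lies lower after TNF than after PBS.

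The later steps of the mitochondrial spiral were either lower or not called. Hadh, which encodes the dehydrogenase for medium and short chains, fell the furthest of all members. It had 99.5, 111 and 118 CPM after PBS and 26.9, 26.5, 29.1 and 32.7 CPM after TNF. The groups were far apart, and the log2 fold change was -1.93 ± 0.11, or 3.81-fold lower (adjusted p = 7.48e-09). Acaa2, the mitochondrial thiolase of the last step, had 65.1, 71.0 and 60.6 CPM after PBS and 21.3, 21.5, 24.8 and 20.2 CPM after TNF. All its TNF values lay below the controls (2.99-fold lower, log2 fold change -1.58 ± 0.11, adjusted p = 5.76e-08).

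The trifunctional protein, which carries the later activities for long chains, is encoded by Hadha and Hadhb. Hadha had 125, 180.0 and 125 CPM after PBS and 123, 133, 147 and 134 CPM after TNF. As for Cpt1a, PBS replicate 2 stood highest, and the log2 fold change of -0.09 ± 0.13 (adjusted p = 0.564) became 0.11 without that library (adjusted p = 0.486). Hadhb had 38.1 ± 4.50 CPM after PBS and 40.8 ± 3.12 CPM after TNF (0.10 ± 0.12, adjusted p = 0.49). The exons of Hadha overlap those of its neighbours Hadhb and Garem2 on the opposite strand over 31% of their length. Thus, after TNF, Hadh and Acaa2 were lower while no difference was detected for the long-chain trifunctional subunits. The difference between these pairs of genes was not tested.

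Genes for unsaturated chains moved in both directions. Eci1, a mitochondrial enoyl-CoA isomerase, had 21.6, 25.8 and 21.4 CPM after PBS and 7.39, 9.61, 9.96 and 7.72 CPM after TNF, and fell without overlap (log2 fold change -1.40 ± 0.16, adjusted p = 5.02e-06). Decr1, the mitochondrial 2,4-dienoyl-CoA reductase, had 27.8, 35.2 and 37.3 CPM after PBS and 12.0, 9.37, 13.8 and 13.5 CPM after TNF, and fell as well (-1.46 ± 0.16, adjusted p = 3.18e-06). In contrast Eci2, an isomerase found in both mitochondria and peroxisomes, rose from 24.0 ± 5.63 CPM to 43.1 ± 5.37 CPM without overlap (0.85 ± 0.16, adjusted p = 0.000359).

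**Figure D4:**
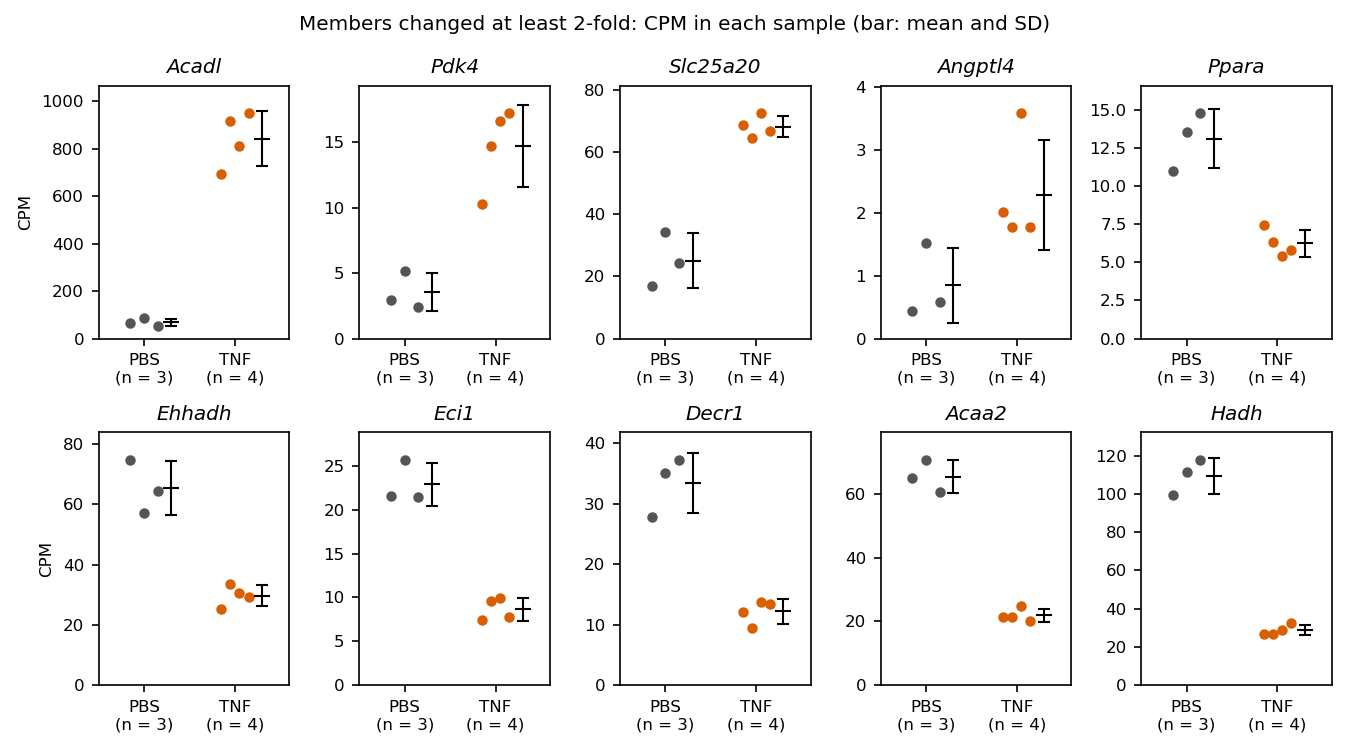
CPM of the 10 members called with at least a 2-fold change, in each library, with dots for libraries and bars for mean and SD (PBS n = 3, TNF n = 4); each panel has its own axis from 0. No TNF dot lies within the PBS range in any panel; for Angptl4 the gap runs from 1.53 to 1.77 CPM.

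Of the peroxisomal members, Ehhadh fell and Acaa1a was not called. Ehhadh encodes the peroxisomal bifunctional enzyme, a classical PPARα target. It had 74.9, 57.3 and 64.3 CPM after PBS and 25.2, 33.7, 30.7 and 29.2 CPM after TNF. No value overlapped, and the log2 fold change was -1.14 ± 0.13 (adjusted p = 3.74e-06). Per kb of annotated exon, Ehhadh had the highest level of the 33 genes after PBS (21.1 CPM per kb). It ranked 9 of 33 after TNF (9.58 CPM per kb). This order depends on the annotated lengths. In CPM without length, genes such as Hadha (143 CPM) and Hadh (110 CPM) lay above Ehhadh (65.5 CPM) after PBS. Acaa1a, a peroxisomal thiolase gene, had 44.1 ± 5.40 CPM after PBS and 36.6 ± 5.03 CPM after TNF (-0.27 ± 0.13, adjusted p = 0.0898). Its exons overlap those of Myd88 on the opposite strand over 7.1% of their length. Myd88 rose (log2 fold change 2.86 ± 0.12, adjusted p = 3.4e-10). Whether its reads entered the count of Acaa1a was not tested. The near-copy Acaa1b had 12 counts over the PBS libraries, 11 of them in PBS replicate 2, and 0 over the TNF libraries, so it was not tested.

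Electrons from the acyl-CoA dehydrogenases pass through the electron transfer flavoprotein (Etfa and Etfb) to its oxidoreductase (Etfdh). Only the oxidoreductase gene was called. Etfdh rose without overlap, from 61.5 ± 9.64 CPM after PBS to 118 ± 3.09 CPM after TNF (log2 fold change 0.94 ± 0.11, adjusted p = 7.62e-06). Etfa had 38.9, 44.3 and 40.9 CPM after PBS and 25.4, 35.4, 38.9 and 35.5 CPM after TNF. Its TNF libraries lay below the PBS libraries by a narrow margin, and the change did not pass the threshold (-0.29 ± 0.14, adjusted p = 0.0861). Etfb was low, with 79 counts in all PBS libraries and 105 in all TNF libraries (0.12 ± 0.48, adjusted p = 0.84). In the annotation, 43.5% of its exon length lies within Etfbl on the same strand, which had 0 counts in every library. How reads of this shared stretch were counted is not stated, and the level of Etfb is therefore uncertain.

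The remaining members are target genes through which PPARs act beyond oxidation. Pdk4 encodes a kinase that inactivates pyruvate dehydrogenase and thereby spares glucose when fatty acids are burnt. It had 2.97, 5.19 and 2.44 CPM after PBS and 10.3, 14.7, 16.6 and 17.2 CPM after TNF. All TNF values exceeded all PBS values, and the log2 fold change was 2.05 ± 0.28 (4.13-fold, adjusted p = 2.36e-05). Angptl4, which encodes a secreted inhibitor of lipoprotein lipase, had 0.433, 1.53 and 0.583 CPM after PBS and 2.01, 1.77, 3.59 and 1.77 CPM after TNF. The groups were separate but rested on 48 and 160 counts (1.41 ± 0.53, adjusted p = 0.0344). Angptl4 was not called without PBS replicate 1 (1.11, adjusted p = 0.117), PBS replicate 3 (1.19, 0.0943) or TNF replicate 3 (1.10, 0.116), and the change was 2.15 without PBS replicate 2. Plin2, the lipid droplet coat gene, had 27.1 ± 3.24 CPM after PBS and 29.7 ± 3.82 CPM after TNF and was not called (0.13 ± 0.14, adjusted p = 0.422). Hence, of these 3 genes, Pdk4 rose, Angptl4 rose with a call that 5 of 13 alternatives lost, and Plin2 was not called. Of all tested genes, 29.5% rose. Ehhadh, another target gene, and Ppara fell. Since PPARs activate many of the oxidation genes above as well, these few genes give no common direction of PPAR targets.

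Promoter windows from RefSeq, on build GRCm38.p6 and running from 250 bases before to 50 bases after the start of transcription, were matched by symbol for 29 of the 33 genes, with 33 windows in all. The 250 bases before the start of the strongest rises (Acadl, Pdk4 and Slc25a20) and of the strongest fall (Hadh) are printed 5′ to 3′ in lower case, since the results turn on these genes. They lie at chr1:66863310-66863559 on the minus strand (Acadl), chr6:5496279-5496528 on the minus strand (Pdk4), chr9:108661886-108662135 on the plus strand (Slc25a20) and chr3:131272102-131272351 on the minus strand (Hadh). None of these stretches holds a motif described in the next paragraph, so no letter is capitalised.
Acadl: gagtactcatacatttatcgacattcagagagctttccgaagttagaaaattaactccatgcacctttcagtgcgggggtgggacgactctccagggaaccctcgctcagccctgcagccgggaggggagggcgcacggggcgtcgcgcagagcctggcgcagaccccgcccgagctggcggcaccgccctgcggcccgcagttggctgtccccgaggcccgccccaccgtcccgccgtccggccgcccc
Pdk4: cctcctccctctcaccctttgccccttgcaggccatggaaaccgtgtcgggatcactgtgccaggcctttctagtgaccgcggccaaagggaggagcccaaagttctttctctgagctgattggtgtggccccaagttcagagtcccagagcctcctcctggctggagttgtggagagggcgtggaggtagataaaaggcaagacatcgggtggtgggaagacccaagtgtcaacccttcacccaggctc
Slc25a20: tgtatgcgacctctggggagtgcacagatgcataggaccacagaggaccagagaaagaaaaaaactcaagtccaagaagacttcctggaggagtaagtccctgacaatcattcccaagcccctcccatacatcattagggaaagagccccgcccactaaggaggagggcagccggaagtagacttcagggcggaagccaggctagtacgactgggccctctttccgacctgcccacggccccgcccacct
Hadh: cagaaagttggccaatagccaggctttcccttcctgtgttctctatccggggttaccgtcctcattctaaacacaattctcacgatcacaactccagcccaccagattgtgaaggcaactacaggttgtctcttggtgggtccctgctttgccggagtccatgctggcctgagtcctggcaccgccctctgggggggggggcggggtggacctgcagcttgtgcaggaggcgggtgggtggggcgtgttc

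PPARs with their partner bind 2 copies of the half-site AGGTCA in the same direction with 1 base between them, an arrangement called DR1. Both strands of each window were searched for DR1 with at most 2 mismatches and for the exact half-site, which can lie inside a DR1. A DR1 was found in 5 of 33 member windows (15.2%) and in 3.86% of all 32851 windows, and the half-site in 24.2% and 16.3%. The consensus of NF-kB, a factor that TNF activates, was found in 3.03% and 4.51%, with its only member window that of Etfa. The windows of Acadl, Pdk4, Hadh and Ehhadh held no match to any of the 3 motifs. The DR1 matches are given because they mark the members whose window resembles a PPAR element, with letters that fit the half-sites in capitals. Counted from the first transcribed base, they start at 6 in Slc25a20, at -75 in a second window of Rxra, at -63 in Cd36, at -77 in Etfa and at -225 in Plin2, the last 3 on the strand opposite to the gene.
Slc25a20: AGGTgAaAGGTCg
Rxra: tGGTCAtAGGcCA
Cd36: AaGTCAgAGGcCA
Etfa: AGGgCAaAGGTaA
Plin2: AGGTCAggGGTCc

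Of these 5 genes, Slc25a20 rose, Rxra fell, Etfa and Plin2 were not called and Cd36 was not tested. A match is a description of the letters in the window and shows no binding.

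Genes next to the list in the same pathways were counted from lists that share no gene with it. Other mitochondrial fatty acid oxidation and ketone body genes were mostly lower. Of 20 tested genes (22 listed), 13 fell (65%) and 2 rose (10%), with a median log2 fold change of -0.88. Of all tested genes, 30.1% fell and 29.5% rose. Those that fell included Acad11, an acyl-CoA dehydrogenase family gene (38.3 ± 3.25 against 8.46 ± 2.43 CPM; -2.17 ± 0.19, adjusted p = 3.04e-07). Among them were also genes for the disposal of propionyl-CoA, the end product of odd-numbered chains, namely Mmut (-1.76 ± 0.15, adjusted p = 3.78e-07) and Pcca (-1.47 ± 0.14, 1.08e-06).

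Other peroxisomal genes of fatty acid oxidation moved in both directions. Of 18 tested genes (19 listed), 8 fell (44.4%, against 30.1% of all tested genes) and 5 rose (27.8%, against 29.5%), with a median log2 fold change of -0.15. The falls included Cat, the catalase that removes hydrogen peroxide (-1.66 ± 0.17, adjusted p = 1.52e-06), Ech1, a dienoyl-CoA isomerase (-1.54 ± 0.14, 6.62e-07) and Hsd17b4, the second bifunctional enzyme (-1.06 ± 0.10, 1.17e-06). No rise in this list reached 2-fold.

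Of 18 other PPAR target genes, 8 were too low to be tested, while others such as Ucp2 (251 ± 52.5 CPM after PBS) were abundant. Of the 10 tested, 5 fell and 5 were not called, with a median log2 fold change of -0.86. Thus 50% were called, against 59.6% of all tested genes, of which 30.1% fell. Fabp2, the intestinal fatty acid binding protein and itself an enterocyte gene, had 52.4, 65.6 and 32.0 CPM after PBS and 6.11 ± 0.542 CPM after TNF and fell (-3.03 ± 0.21, adjusted p = 8.79e-08), together with the fall of the enterocyte markers, whose part was not tested. The transporters Slc27a1 (-1.32 ± 0.10, adjusted p = 1.33e-07) and Slc27a2 (-1.02 ± 0.13, 1.57e-05) and the mitochondrial carrier Ucp2 (-0.86 ± 0.14, 0.000108) fell as well.

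Of the PPAR partners, coactivators and corepressors, 16 of 18 genes were tested, and 4 rose and 8 fell, all by less than 2-fold (median log2 fold change -0.25). This was 75% called, against 59.6% of all tested genes. The corepressor gene Ncor1, whose product silences unliganded nuclear receptors, fell from 226 ± 14.0 to 142 ± 6.65 CPM (-0.67 ± 0.10, adjusted p = 4.49e-05). Rxrb, a relative of Rxra, fell too (-0.62 ± 0.14, adjusted p = 0.00123). Lpin1, a phosphatidate phosphatase that also acts as a coactivator, rose from 21.8 ± 1.73 to 39.3 ± 3.73 CPM (0.85 ± 0.12, adjusted p = 3.58e-05).

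Lipid droplet and lipolysis genes held 5 rises and 3 falls among 11 tested genes (14 listed), with a median of 0.05. This was 72.7% called, against 59.6% of all tested genes. Pnpla2, the triglyceride lipase, rose from 65.6 ± 9.49 to 107 ± 8.37 CPM (0.71 ± 0.12, adjusted p = 0.000149), and its activator Abhd5 from 16.5 ± 0.814 to 37.0 ± 1.09 CPM (1.16 ± 0.11, 1.12e-06). Mgll, which completes the breakdown to glycerol, rose from 36.2 ± 4.22 to 69.4 ± 7.57 CPM (0.94 ± 0.12, adjusted p = 1.74e-05). Lipases did not all rise. Lipe, the hormone-sensitive lipase, fell from 7.48 ± 1.47 to 2.77 ± 0.449 CPM (-1.43 ± 0.26, adjusted p = 0.000283), and Hilpda, whose product inhibits the lipase encoded by Pnpla2, rose from 4.70 ± 1.17 to 9.85 ± 0.691 CPM (1.07 ± 0.22, 0.00072). Lipa, another lipase gene of this list, rose from 4.27 ± 1.63 to 9.62 ± 2.47 CPM (1.16 ± 0.29, adjusted p = 0.00326). Lipe, Hilpda and Lipa lie under the level set for naming and were named after their values were seen. Dgat1, which makes triglycerides, fell from 21.6 ± 2.85 to 8.06 ± 1.07 CPM (-1.42 ± 0.16, adjusted p = 5.35e-06).

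**Figure D5:**
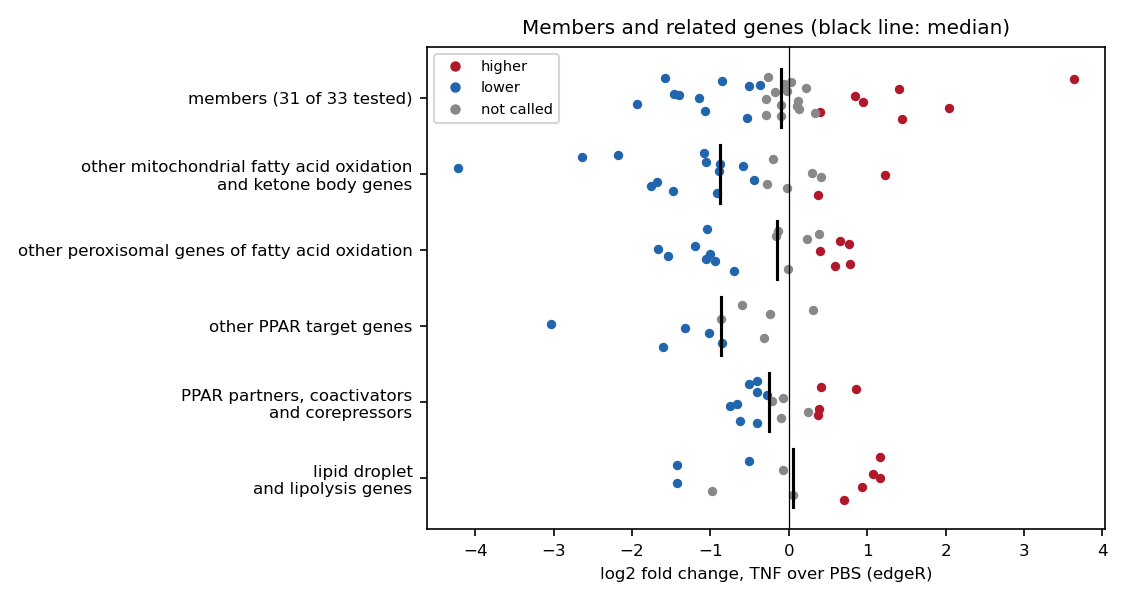
Log2 fold change of TNF over PBS for the members and for 5 lists of related genes, with 1 dot per tested gene, coloured by call, and a black line at the median. The medians of the other mitochondrial genes (-0.88) and of the other PPAR target genes (-0.86) lie to the left of that of the members (-0.09).

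Within the control group, the members did not vary alike in all libraries. PBS replicate 2 had the highest PBS value for 21 of 31 tested members, whereas it was the highest of the controls for 30.9% of all tested genes. This was the library with the highest sum of the 10 enterocyte markers and with 11 of the 12 counts of Acaa1b, and the part of enterocyte RNA in its members' levels was not tested. Without PBS replicate 2, Acadl had a log2 fold change of 3.83, Pdk4 of 2.45 and Ppara of -1.04, and each was still called.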

How the data were processed

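RNA-seq of sorted PCs was deposited as 1 table of raw counts, whole numbers of reads per Ensembl gene and 1 column per library (3 PBS, 4 TNF). Per the submitters' processing notes, FastQC, Trimmomatic 0.39, STAR 2.7.10a and DESeq2 were used, and the builds mm10 and mm39 are named. Which of these builds, which annotation and which strand setting made the table is not given in the sources used here. Symbols, exon lengths and overlaps were taken by identifier from GENCODE M39 (GRCm39), in which 98.8% of identifiers were found. Depth limits only genes with few counts, and P-values describe the spread between mice.

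The test was edgeR's quasi-likelihood F test (version 4.0.16, R 4.3.3; filterByExpr, trimmed mean of M-values or TMM, robust, two-sided, no covariate, all 7 libraries), applied to the counts and adjusted over 14329 genes by Benjamini-Hochberg. The SE was taken from the log2 fold change and the F statistic. The code was tested on simulated data. CPM per kb divides CPM by the annotated exon length, which joins the exons of all annotated transcripts of a gene. Values in every library are given for receptors, partners and members called with at least 2-fold change, and for some others. Of each related list, the called genes with the largest change were named, at most 4 and none averaging under 10 CPM, and some of them are not reported here. Members and lists were chosen with earlier results of these data known.

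The alternatives were total counts or DESeq2 1.42.0 size factors as scaling, no filter, at least 1 CPM in 3 libraries, the DESeq2 Wald test, the replicate number as a block, and leaving out each library. A TNF library was looked at again when its gap to the nearest other, divided by the range, passed 0.829.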

Additional observations from a re-analysis of the deposited data

Results flagged for a closer look

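For each of 31 members, the extreme values among the 4 TNF libraries were set against the rest, and chance marks about 1 in 20 groups. A library stood apart for 2 members. Acsl1 had 70.3 CPM in TNF replicate 1, against 86.0 to 86.3 CPM in the other TNF libraries. Angptl4 had 3.59 CPM in TNF replicate 3, against 1.77 to 2.01 CPM in the others, and its call was lost without that library.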

How the results depend on the processing

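Of 31 tested members, 16 kept their direction and their side of the threshold under all 13 alternatives, among them Acadl, Hadh, Acaa2, Eci1, Eci2, Decr1, Acadm, Ehhadh, Slc25a20, Etfdh, Pdk4, Ppara and Rxra. The members called higher numbered 5 to 8 and those called lower 9 to 12 over these alternatives. Ppard and Angptl4 were the called members that lost their call most often, in 5 alternatives each. No called member changed direction, and 7 members that were not called did. Scaling by total counts shifted the median of all tested genes to -0.16 (log2), lost the calls of Ppard (0.25) and Angptl4 (1.25), called Acaa1a (-0.45) and Etfa (-0.47) lower, and turned Acads (-0.132), Hadhb (-0.0827), Etfb (-0.0619) and Plin2 (-0.0282). It gave 3142 higher and 4614 lower genes, and the TMM scaling 4229 and 4314. Leaving out single libraries gave -0.18 to 0.33 for Cpt1a, with 0.01 without TNF replicate 1 or TNF replicate 4 and 0.33 without PBS replicate 2, which also turned Acadvl (-0.133 to 0.0518) and Hadha. Acads ran from -0.0156 (without TNF replicate 1) to 0.0703 and was also below 0 without PBS replicate 2 or TNF replicate 3. Hadha ran from -0.1888 to 0.1062, and Etfb from -0.1958 (without PBS replicate 1) to 0.6801. Acsl5 (0.24) was called without TNF replicate 1, Acaa1a (-0.37) without TNF replicate 2 and Etfa (-0.38) without TNF replicate 3. The cause was not tested.

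Equal replicate numbers do not mark shared mice, and deviations from the group means did not go together within a number (correlations -0.30, -0.03 and -0.17). With the replicate block, 7131 genes were called instead of 8543, Cpt1a was 0.0756, and the calls of Ppard (0.41) and Angptl4 (1.64) were lost. Depth limits Angptl4, Etfb, Cd36 and Acaa1b, which had few counts.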

Other observations

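The acyl-CoA synthetase gene Acsl6, chosen after its values were seen, had 4.76, 3.92 and 3.34 CPM after PBS and 0.17, 0.12, 0.05 and 0.52 CPM after TNF, a log2 fold change of -4.22 ± 0.58 (edgeR adjusted p = 2.7e-05). Its TNF libraries were all far below the PBS libraries, though they held only 14 counts together. The members Acsl1 (-0.37) and Acsl3 (-0.51) also fell without overlap, but by less, and Acsl5 was not called. Acsl4, a related synthetase gene outside the list, was called lower with overlapping groups (-0.59 ± 0.16, edgeR adjusted p = 0.00698). The difference in size between these genes was not tested.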
